A study of Mus musculus with 4 samples.

Results

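Cell cycle, replication and CDK inhibitor genes were followed in CD8 T cells, naive or memory, from the B6.2.16 line, in which 1 transgenic receptor recognises the male HY antigen. The genes were chosen by name. A gene was a member if a probe set with a single annotated symbol named a cyclin of classes A to H, a Cdk or Cdkn gene, a numbered Cdc or Mcm gene, an E2f, Bub, Rrm, Top2, Pola, Pold or Lig gene, or Pcna, Mki67, Tyms, Hmgb2 or Rb1. This gave 79 of the 6137 genes with 1 symbol, of which 61 were on the A chip (77 probe sets), 25 on the B chip (27 probe sets) and 7 on both. The choice by name also took in genes with other functions, such as the small GTPase Cdc42, and 8 genes for proteins that bind a cyclin, a CDK, an inhibitor or a polymerase.

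The naive cells were taken from lymph nodes of B6.2.16 females that lacked RAG1, with a stated purity above 85%. For the memory cells, splenocytes of such mice were cultured with HY peptide for 4 days. The resulting effectors were transferred into female RAG1-deficient hosts, and CD8 cells were recovered by magnetic beads from spleen and lymph nodes 200 days later, with a stated purity above 80%. RAG1 deficiency, which stops the formation of other T and B cells, was thus shared by donors and hosts of both groups. The sources used here give neither the age of the donors nor the number of animals pooled. RNA of each population was hybridised to the A and B chips of an Affymetrix mouse set, 4 arrays in all, so each group had 1 array per chip. There is no replicate, hence no error, p-value or test, and every difference is a comparison of 1 pair of preparations. In bulk RNA, fewer cells of a type and less RNA per cell cannot be told apart. Organ of origin, culture, transfer and sorting changed together with the group and cannot be told apart either.

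Values are array intensities in arbitrary units and can be negative. On the B chip both arrays were scaled to a common trimmed mean, and a floor of 423 was taken as the noise limit. It is the size that 95% of the negative values stayed within on the naive array, the noisier of the pair. The memory B array had a lower limit of its own, 287, and the memory A array one of 184. The brightest probe set stood for its gene, which was called measured if either B array exceeded the floor, and called higher or lower if its arrays differed at least 2-fold, after any value under the floor had been raised to it, and the brighter of them was no less than 2 times the floor. The naive A values hardly followed the genes they are listed for. They correlated with the memory A values at a Spearman coefficient of 0.10 over 6529 probe sets, against 0.85 over 6540 on the B chip, and the 55 control probe sets gave 0.21 between the naive arrays and 0.96 between the memory arrays. These coefficients describe probe sets, which are not replicates. The A chip is therefore used for levels in the memory preparation only, and no A-chip comparison is made. Of the 5 T cell markers on the B chip, 3 were above the floor on each array, with summed intensities of 4797 in memory and 8306 in naive cells. Cd3d read 959 and 1115, Thy1 2848 and 6184, Cd3g 254 (under the floor) and 502, Cd8a 498 and 352 (under the floor), and Cd2 238 and 153 (both under it). On the memory A array Cd3e (317) and Cd28 (186) were above the limit and Cd5 (110) was not. Macrophage markers were present too. All 10 of them on the B chip were above the floor in memory and 9 in naive cells, with summed intensities of 25803 and 14476, and 6 were at least 2-fold higher in memory. Granulocyte markers (4 on the B chip) summed to 7772 and 8774, and erythroid ones (4) to 6995 and 18198. The erythroid genes went both ways, with Hba-a1 and Hbb-b2 at least 2-fold lower and Alas2 at least 2-fold higher in memory, while Slc4a1 read 754 and 614. The B cell markers Cd79a and Pax5 were under the floor on both B arrays. On the memory A array Ms4a1 (301) was above the limit, while Cd79b (61) and Blk (133) were under it. The part of other cell types in the values below was not tested.

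Resting lymphocytes sit outside the cell cycle until antigen drives them in. D-type cyclins with their kinases inactivate the retinoblastoma protein, E2F factors then switch on the genes of DNA synthesis, and cyclins E, A and B with CDK2 and CDK1 carry the cell through S phase and mitosis. CDK inhibitors such as p27 (Cdkn1b) and p21 (Cdkn1a) hold these kinases back, and memory CD8 T cells are known to divide slowly in the absence of antigen.

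On the B chip the replication clamp gene Pcna was the 1 member past 2-fold, and it was lower in memory cells. In all, 10 of 25 members were measured, against 26.2% of the 1760 genes of that chip. Of these 10, 1 was at least 2-fold lower, against 8.66% of the 462 measured genes, and 0 were at least 2-fold higher, against 8.87%. Only 3 of the 10, Pcna, Mki67 and Cdc42, were bright enough for a call, so nothing is read from these shares. In 6 of the 10 the memory value lay under the floor, against 20.8% of the measured genes. These 6 counted as measured through the naive array alone, so their lower reading in memory was set by that filter, their ratios are bounds, and nothing is read from their direction or from a median that includes them. The 4 members above the floor on both arrays, Pcna, Cdk16, Mki67 and Cdc42, all read lower in memory, as did 57.9% of the 316 such genes. Their median log2 ratio of memory to naive was -0.35, and that of the 316 genes was -0.12. With 4 genes, no direction of the group is read from this. The naive array was the noisier and reached higher values, and its part in these ratios was not tested.

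**Figure D1:**
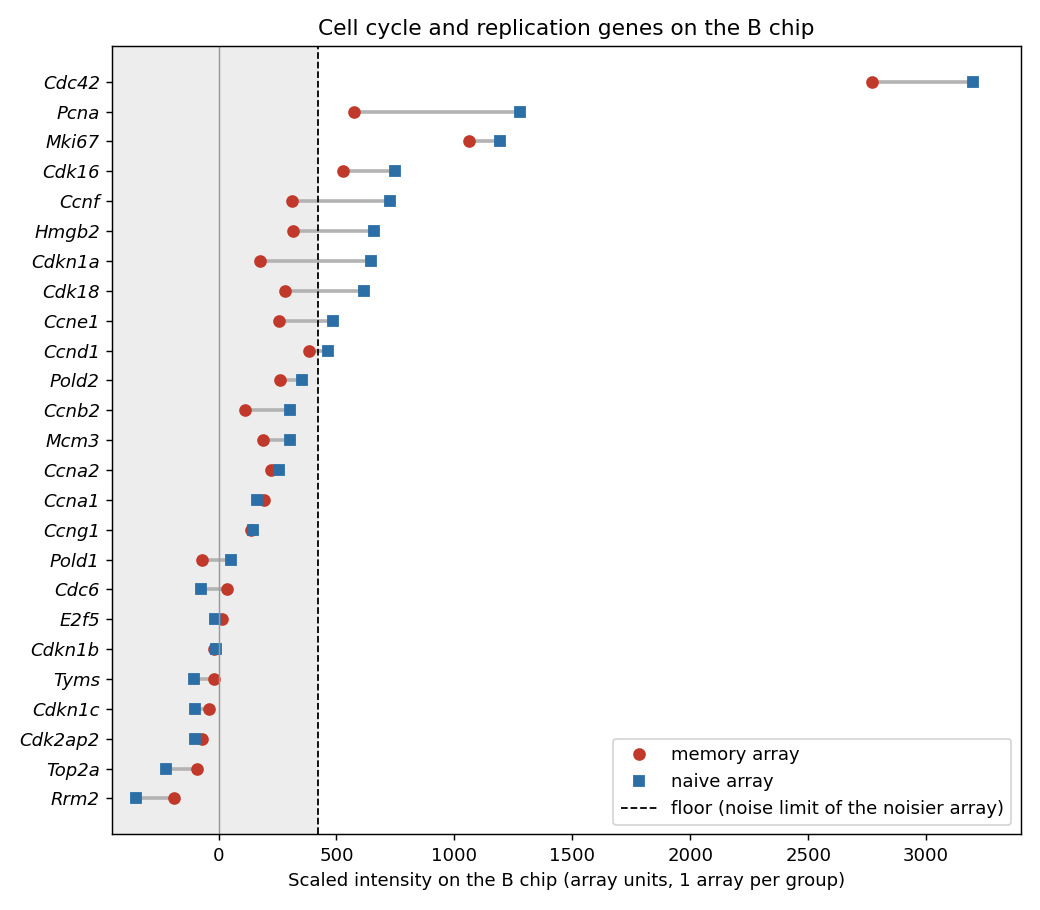
Scaled intensity (array units, horizontal axis) of the 25 members on the B chip, with 1 memory array (circles) and 1 naive array (squares) and no error bars, since each group has 1 array. The shaded area lies under the floor of 423. Pcna, Cdk16, Mki67 and Cdc42 have both points beyond the line, with the memory point to the left. The other 6 measured members cross it with the naive point alone.

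**Figure D2:**
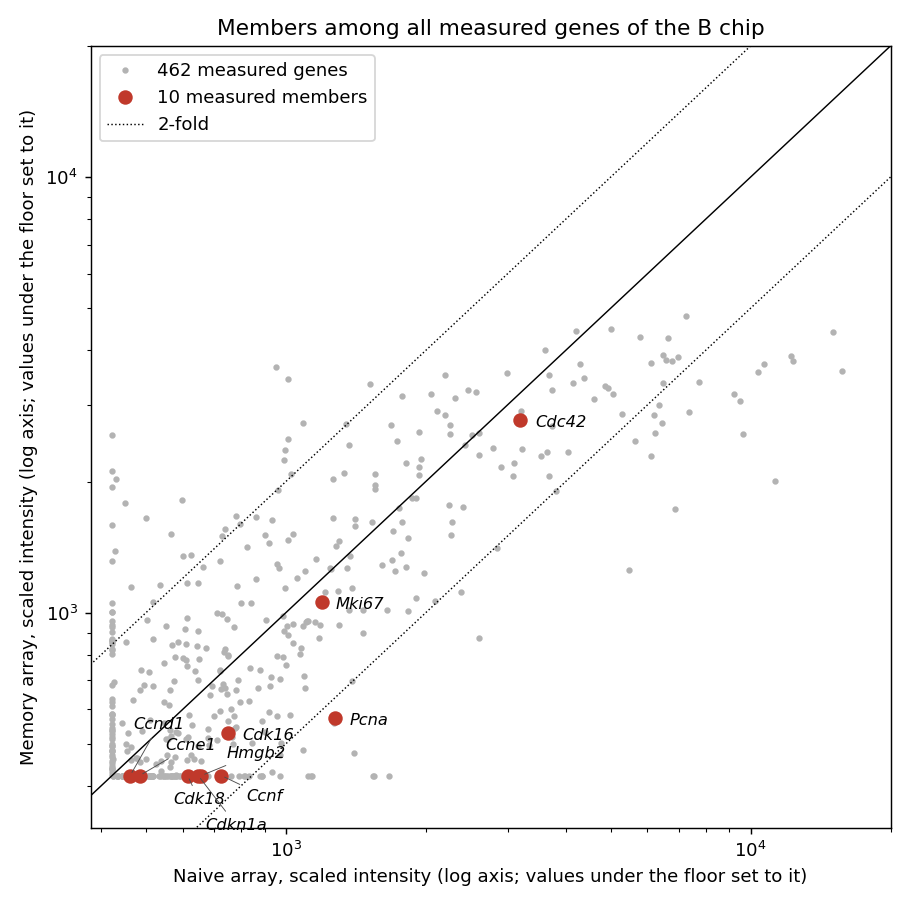
Scaled intensity on the memory array against the naive array of the B chip, both on log axes, for the 462 measured genes (grey) and the 10 measured members (red), where a value under the floor of 423 is drawn at the floor. The solid line marks equal values and the dotted lines 2-fold. The 6 members in a row at the bottom were measured through the naive array alone, which places them under the solid line, and Pcna alone meets both the brightness and the 2-fold condition.

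Among the replication proteins, Pcna, the sliding clamp that holds DNA polymerase on its template, read 573 in memory and 1278 in naive cells. Both values were above the floor, and the memory value was 2.23-fold lower (log2 ratio -1.16). The log2 ratio stayed at or beyond -1.01 under each other scaling, and fell short of 2-fold, at -0.60, when the floor was doubled, because the memory value then lay under it. The other 3 replication members of the B chip were not measured. The helicase subunit Mcm3 read 188 in memory and 303 in naive cells. The DNA polymerase delta subunits read -70.5 and 51.4 (Pold1, the catalytic subunit) and 260 and 356 (Pold2). All of these lie within the noise of the arrays, and a difference could not be detected at this signal.

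The promoter of Pcna is shown because it is the member past 2-fold. The stretch is the 120 bases before the RefSeq start of Pcna on GRCm38.p6, chr2:132253181-132253300, minus strand, with the 1 match found to any of the motifs searched in capitals. That match is the reverse complement of CCAAT.

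Pcna: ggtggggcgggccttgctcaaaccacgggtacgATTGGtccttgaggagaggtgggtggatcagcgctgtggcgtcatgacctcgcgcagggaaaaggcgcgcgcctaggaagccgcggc

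Of the 12 replication members on the memory A array, 3 were above the noise limit and 0 reached 2 times that limit, against 29.5% and 15.1% of all genes of that chip. The helicase subunits Mcm2 (229) and Mcm7 (208) and the polymerase-binding protein Poldip3 (201) were just above the limit of 184. Under it were the helicase subunits Mcm4 (44), Mcm5 (-57) and Mcm6 (118), the replication initiation factor Mcm10 (-12), the primase-associated polymerase subunits Pola1 (28) and Pola2 (59), the small delta subunit Pold4 (-32), and the ligases Lig1 (39) and Lig3 (54), which join DNA fragments in replication and in repair. The limit fell inside the MCM family, with 2 of 6 numbered members on this chip above it.

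Of the genes for nucleotide supply, 0 of 2 were measured on the B chip, against 26.2% of all genes there. On the memory A array 0 of 4 were above the limit, against 29.5%, and nothing is read from counts this small. Ribonucleotide reductase makes deoxynucleotides from ribonucleotides, and its S phase subunit Rrm2 read -188 in memory and -352 in naive cells on the B chip and at most 116 over 3 probe sets on the memory A array. The large subunit Rrm1 read 44 and the damage-induced subunit Rrm2b -22 on that array. Thymidylate synthase, Tyms, which makes the thymine nucleotide, read -17.9 and -103 on the B chip and 34 on the memory A array. Thymidine kinase, Tk1, a gene of the same supply that is no member by name, read 22 there. These are values at or below zero or well under the limits.

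The chromosome and mitosis genes are given gene by gene. Mki67, whose protein coats mitotic chromosomes and serves as the common stain for cycling cells, read 1060 in memory and 1194 in naive cells, a log2 ratio of -0.17, and both values were above 2 times the floor of 423. Top2a, the topoisomerase that untangles chromosomes of dividing cells, read -89.3 and -225 on the B chip and -101 on the memory A array, all below zero. Hmgb2, a chromatin protein abundant in dividing lymphoid cells, read 317 in memory, under the floor, and 658 in naive cells, 1.56 times the floor. With the memory array's own limit of 287 as the floor its log2 ratio was -1.06. On the memory A array Top2b, the topoisomerase that resting cells also use, read 103, and the checkpoint kinase Bub1 read 10, both under the limit. Bub3, a checkpoint protein that also takes part in other complexes, read 692, 199 and 8 with its 3 probe sets, so 2 of the 3 were above 184. Each gene is read by its own probe sets, so their levels are not set against each other.

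Cyclins of the B chip were measured in 3 of 7 cases, against 26.2% of all genes of that chip. Nothing is read from group counts this small, here or below. Each of the 3 had its memory value under the floor. Ccnf, the F-box cyclin that marks proteins for degradation in late cell cycle, read 313 in memory and 726 in naive cells. Its naive value was 1.72 times the floor. Ccne1, the cyclin of the G1 to S transition, read 258 and 485, the latter 1.15 times the floor. Ccnd1, the D-type cyclin of many tissues but little used by lymphocytes, read 385 and 462, both close to the floor. The naive value was 1.09 times the floor. The S phase and mitotic cyclins were not measured, with 224 and 256 for Ccna2 and 111 and 303 for Ccnb2. The same held for the germ cell cyclin Ccna1 (194 and 164) and the stress-related Ccng1 (138 and 148). Within this group only Ccna1 had the higher value in memory, and both of its values were within noise.

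The D-type cyclins of lymphocytes were read on the memory A array. Ccnd3 gave 840 and 446 with its 2 probe sets, and Ccnd2 gave 386, all above 2 times the limit of 184. The cyclin D-binding protein Ccndbp1 read 391. The mediator cyclin Ccnc (38), the quiescence-associated Ccng2 (51) and the cyclin B-interacting protein Ccnb1ip1 (-14) were under the limit. Of the 6 genes in the cyclin group, 3 were above the limit, against 29.5% of all genes of that chip.

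Kinase genes on the B chip were measured in 2 of 3 cases, against 26.2% of all genes of that chip. Cdk16, a CDK-related kinase of the PCTAIRE type, read 529 in memory and 750 in naive cells, both above the floor, a log2 ratio of -0.50. Its relative Cdk18 read 281 in memory, under the floor, and 615 in naive cells, 1.45 times the floor. The CDK2-associated protein Cdk2ap2 read -69.5 and -101, within noise. Both measured kinases belong to the same small PCTAIRE family, and neither reached the brightness that a call requires.

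Against 29.5% of all genes of that chip, 4 of the 11 genes of the CDK group were above the limit on the memory A array. They were Cdk9 (624) and Cdk11b (564), kinases that act on transcription and splicing, the mitotic kinase Cdk1 (210), and Cdk2ap1 (238 and 77 with its 2 probe sets). Only Cdk9 and Cdk11b reached 2 times the limit. The G1 and S phase kinases Cdk4 (110) and Cdk2 (114) and the CDK-activating kinase Cdk7 (-62) were under it, as were the kinases Cdk5 (10) and Cdk14 (174), the Cdk5 activator Cdk5r1 (46) and the Cdk5-binding protein Cdk5rap3 (134). Cdk14 was the closest to the limit from below.

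CDK inhibitors differed between genes and between chips. On the B chip Cdkn1a, the inhibitor p21 that p53 induces, read 174 in memory, under the floor, and 648 in naive cells. The naive value was 1.53 times the floor. Halving the floor moved the log2 ratio of Cdkn1a, a bound, to -1.62. On the memory A array Cdkn1a read 124, also under the limit. Both probe sets are of the sequence-family class, whose probes can match related genes. Cdkn1b, the inhibitor p27 of resting T cells, was above 2 times the limit on the memory A array, at 613, whereas both of its B-chip probe sets were within noise in memory and naive cells, the brighter one at -18.9 and -10.1. Thus p27 was detected by 1 of its 3 probe sets and has no memory to naive comparison here, and the cause of the difference between the chips was not tested. Cdkn1c, p57, was below zero on all 3 arrays (-39.7 and -98.7 on the B chip, -71 on the memory A array).

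The inhibitors of the INK4 class, which act on CDK4 and CDK6, were on the A chip alone. Cdkn2d, p19, read 265, above the limit. Cdkn2c, p18, read 133 and Cdkn2a, the locus of p16 and p19ARF, read 102, both under it. Cdkn3, a phosphatase despite its symbol, read 10, and Cdkn2aipnl, named for an Arf-binding protein, read 55. In total 2 of the 6 CDK inhibitors were above the limit on the memory A array, against 29.5% of all genes there.

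Of the factors that drive or restrain S phase transcription, E2f5, a repressor of the family, read 13.9 in memory and -17.1 in naive cells on the B chip. Of 4 such genes on the memory A array, 1 was above the limit, against 29.5% of all genes there. E2f1, an activator, read 229 with one probe set and -142 with the other. E2f3 (3), the late cell cycle repressor E2f8 (120) and the retinoblastoma gene Rb1 (54) were under it. No factor of this group was 2 times above the limit.

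The numbered Cdc genes share a naming history in yeast more than a function. Cdc42, the GTPase of cell polarity, was read far above the limits on every array used, with 2770 in memory and 3197 in naive cells on the B chip and 1461 on the memory A array. Its log2 ratio was -0.21 as reported but 0.31 after quantile and 0.30 after intensity-dependent normalization, so no direction is read from it. On the memory A array the ubiquitin-conjugating enzyme Cdc34 (677), the chaperone partner Cdc37 (537) and the splicing factor Cdc5l (541, 359 and 15 with 3 probe sets) were above 2 times the limit. The Cdc genes whose products load or fire replication origins or trigger division were within noise. They were Cdc6 (35.7 in memory and -73.5 in naive cells on the B chip) and, on the memory A array, the helicase cofactor Cdc45 (91) and the phosphatases Cdc25a (52) and Cdc25c (-29). The anaphase-promoting complex subunits Cdc16 (138), Cdc23 (82) and Cdc26 (99) were under the limit as well, as were the transcription elongation factor Cdc73 (4) and the Cdc42 effector Cdc42se2 (93). In total 4 of the 12 genes of the Cdc group were above the limit on the memory A array, against 29.5% of all genes there. Nothing is read from how they divide by function. Outside the Cdc names, the mitotic kinase Cdk1 (210) and the helicase subunits Mcm2 (229) and Mcm7 (208) were above the limit. Mcm4, Mcm5 and Mcm6 were under it.

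**Figure D3:**
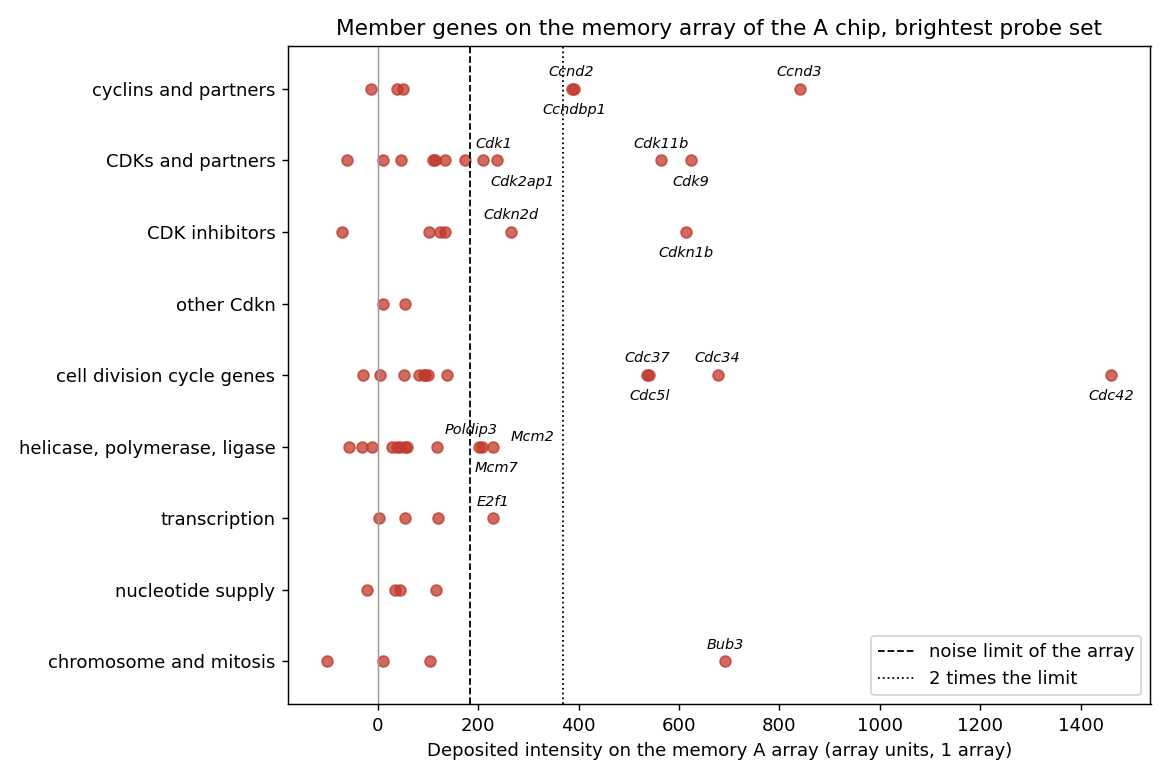
Deposited intensity (array units, horizontal axis) on the memory array of the A chip for the 61 members of that chip, 1 point per gene at its brightest probe set, by group, with no error bars because there is 1 array. The dashed line is the noise limit of 184 and the dotted line 2 times that limit. Named points are the 18 genes above the limit, and 11 of them lie beyond the dotted line (18.0% of the 61, against 15.1% of all genes of that chip).

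Across the memory A array, 18 of 61 members (29.5%) were above the limit, against 29.5% of all 4775 genes of that chip, and 11 (18.0%) were at least 2 times above it, against 15.1%. As a set the members were therefore detected about as often as other genes. The 43 members under the limit ran from -101 to 174 with a median of 51, and 9 members of the 61 were negative. Probe sets of 1 gene did not always concur. Of 13 members with several probe sets on this chip, 1 had all of them above the limit, 8 had none and 4 (Bub3, Cdc5l, Cdk2ap1 and E2f1) were split.

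For genes on both chips the memory arrays can be set side by side. Here the limit is 184 on the A chip and the floor of 423 on the B chip. That floor exceeds the memory B array's own limit of 287. Of 7 such members, Cdc42 was above the limit on both memory arrays and Cdkn1a, Cdkn1c, Rrm2, Top2a and Tyms were under it on both. Cdkn1b was the exception. The same side of the limit was thus given for 6 of 7 members, 5 of them by being under it, and for 298 of all 398 genes on both chips (74.9%), of which 227 were under it on both. Among the other pathway genes described below, Mdm2 (884 on the A chip, 24.8 on the B chip) and Anapc1 (34 and 466) differed.

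Promoters were searched on both strands for E2F-type sites (TTTCCCGC, TTTGGCGC or TTTCGCGC), the CHR-type element TTTGAA of late cell cycle genes, and CCAAT. The windows reach from 250 bases before to 50 after each RefSeq start. The table held 78 promoters for 66 of the 79 members. An E2F-type match was in 13 of these 78 promoters (16.7%), against 1.84% of all 32851 promoters. CCAAT was in 60.3% of them against 37.4%, and TTTGAA in 19.2% against 17.9%, close to the background. The base composition of the windows was not matched, and a match is a description of letters, not of a bound site.

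The E2F-type matches fell in 13 genes. Of the 10 on the A chip, 2 were above the limit, namely Cdk1 (210) and Mcm7 (208), against 29.5% of all genes there. Of the 3 on the B chip, Cdc6, Mcm3 and Pold1, 0 were measured, against 26.2%. Nothing particular to genes with the match is read from such small counts. None of the 11 promoters listed for 9 of the 10 measured B-chip members held an E2F-type match, and Ccnd1 was not matched in the table. The letters TTTGAA were in 4 of those 11 promoters, those of Ccnf, Cdk16, Hmgb2 and Mki67. With 1 array per group these counts carry no test.

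The matches of 4 replication and division genes are shown with 20 bases on either side, as examples from the 13 genes with a match: the 2 above the noise limit, and 1 helicase and 1 origin-loading gene under it. In Mcm6, where 2 matches overlap, the 20 bases are counted from the first of them. Capitals mark the E2F-type letters, read in the direction of the gene on GRCm38.p6. The positions are chr10:69353016-69353063 on the minus strand for Cdk1, chr5:138172021-138172068 on the minus strand for Mcm7, chr1:128359788-128359835 on the minus strand for Mcm6, and chr11:98907993-98908040 on the plus strand for Cdc6. In Mcm6 the capitals cover 2 overlapping matches, TTTGGCGC and the reverse complement of TTTCGCGC. Mcm6 holds a further TTTGGCGC nearer its start, and Mcm7 a TTTCGCGC past a start, both outside the stretches shown.

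Cdk1: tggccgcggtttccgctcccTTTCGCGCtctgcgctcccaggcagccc

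Mcm7: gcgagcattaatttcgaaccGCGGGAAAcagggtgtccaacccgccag

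Mcm6: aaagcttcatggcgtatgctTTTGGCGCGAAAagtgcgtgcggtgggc

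Cdc6: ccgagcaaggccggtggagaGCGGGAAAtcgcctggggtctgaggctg

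For the measured members of the B chip, TTTGAA is shown in the 2 genes that stand for the late cell cycle, Mki67 (1060 in memory and 1194 in naive cells) and Ccnf (313 and 726). The Mki67 stretch is chr7:135716452-135716497 on the minus strand and the Ccnf stretch chr17:24251514-24251559 on the minus strand. Capitals mark the matches, of which the Mki67 stretch holds 2. The other Ccnf match lies nearer the start, outside the stretch shown.

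Mki67: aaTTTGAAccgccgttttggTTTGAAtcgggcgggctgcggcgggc

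Ccnf: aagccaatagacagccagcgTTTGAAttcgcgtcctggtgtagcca

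Other genes of the pathway were taken from a list that holds no member. Of 28 such genes on the B chip, 9 were measured, 1 was at least 2-fold lower in memory, and 0 were 2-fold higher, near the shares over all genes (26.2% measured, then 8.66% lower and 8.87% higher). Not all of the 9 were bright enough for a call. Of the 7 above the floor on both arrays, 6 read lower in memory by some amount, against 57.9%. The one past 2-fold was Hmmr, a spindle-associated hyaluronan receptor expressed in dividing cells, which read 477 in memory and 1398 in naive cells, 2.93-fold lower. A second Hmmr probe set read 12.9 and 173, within noise. Both are of the sequence-family class, and without that class no gene of the list was called. Tfdp1, the DNA-binding partner of E2F factors, named here after its values were seen, read 152 and 816, the latter 1.93 times the floor. Its memory value lay under the floor, so no direction is read.

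Of the 61 genes of this list on the memory A array, 16 (26.2%) were above the limit and 9 (14.8%) at least 2 times above it, again near the background of 29.5% and 15.1%. The 9 were the antiproliferative genes Btg1 (1296) and Btg2 (728), the T cell transcription factor Klf2 (523), the p53 ligase Mdm2 (884), the anaphase-promoting complex subunit Anapc5 (682), the Myc partner Max (554), the nuclear transport GTPase Ran (548), the securin Pttg1 (397) and the condensin subunit Smc4 (437). They share no single role. Other genes that restrain division were under the limit, among them Tob1 (44), Rbl1 (57), Rbl2 (121) and Gadd45a (16). On the B chip Btg1 read 2377 in memory and 3218 in naive cells and Max 1651 and 1260, so that Max was the measured gene of the list with the higher value in memory.

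**Figure D4:**
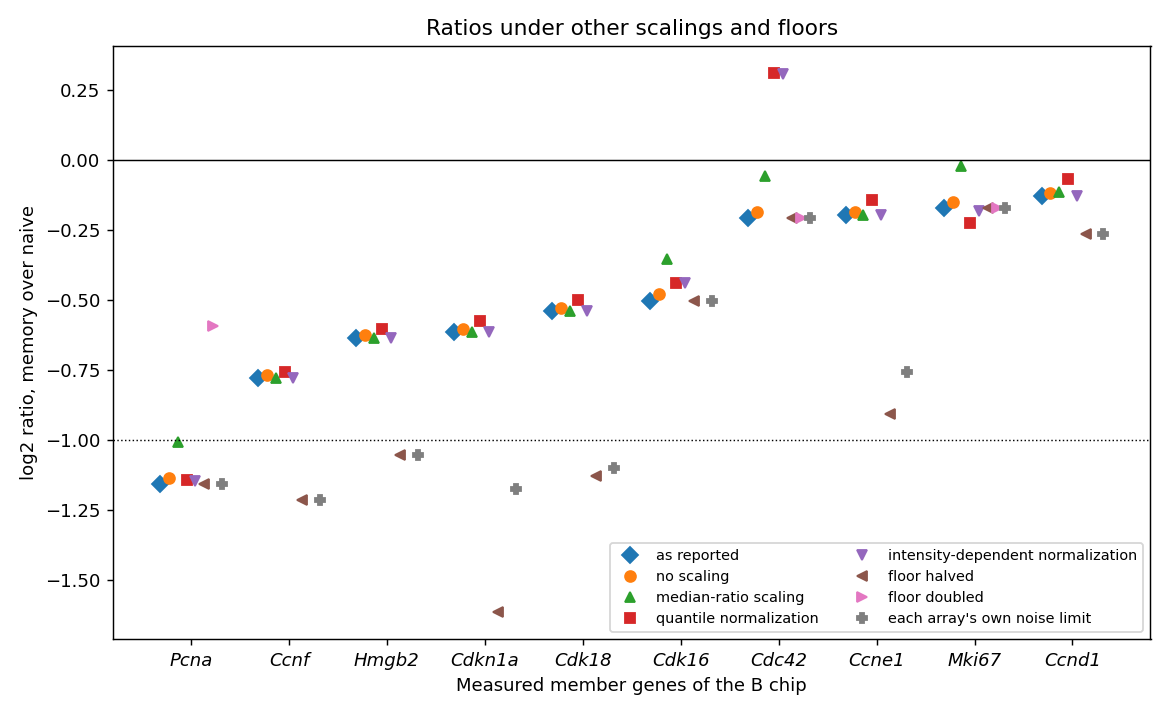
Log2 ratio of memory to naive (vertical axis) for the 10 measured members of the B chip under the reported and 7 other settings of scaling or floor, 1 marker per setting, with no error bars. The solid line is equality and the dotted line 2-fold lower. Cdc42 crosses the solid line, Pcna lies above the dotted line with the doubled floor alone, and Ccnf, Hmgb2, Cdk18 and Cdkn1a pass it when the floor is lowered.

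The choice of floor bore on these members more than the scaling did. With the floor halved 14 members were measured and 5 were at least 2-fold lower (Pcna, Ccnf, Cdk18, Cdkn1a and Hmgb2), against 11.1% of 751 genes, while none was 2-fold higher, against 6.92%. All but Pcna of these 5 exceeded the reported floor through the naive array alone. The halved floor lies under the noise limits of both B arrays, 287 and 423, so nothing is read from these counts. With each array's own noise limit the log2 ratios of Ccnf, Hmgb2, Cdk18 and Cdkn1a were -1.22, -1.06, -1.10 and -1.18, those of Cdk18 and Cdkn1a as bounds, but their brighter values stayed under the brightness that a call requires. With the floor doubled, 3 members (Pcna, Mki67 and Cdc42) were measured and none was called. Under each other scaling Pcna was still the 1 member called. Among the 4 members above the floor on both arrays, Pcna, Cdk16 and Mki67 kept a negative ratio under each of them, though that of Mki67 shrank to -0.02 with median-ratio scaling, and Cdc42 turned as described.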

How the data were processed

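RNA of naive and memory cells was read on the A and B chips of an Affymetrix mouse set, 1 array per group and chip. The deposited values are intensities, 1 whole number per probe set, negative numbers included. Their 2% trimmed means lay between 150.2 and 150.4 on all 4 arrays, so the authors appear to have scaled them. The sources used here name neither the software nor a genome build. The number of arrays limits the precision.

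Samples were grouped by title. Symbols came from the platform annotation, and all members' Entrez numbers were found in a RefSeq table (GRCm38.p6) with 0 symbols changed. Controls (55 per chip) were left out. Both B arrays were scaled to 1 common 2% trimmed mean (factors 0.993 and 1.01), and memory A values were used as deposited. Negative values made up 34.0% and 35.6% of the B arrays' probe sets (memory, naive) and 19.8% of the memory A array's. Calculations used Python 3.11.15, numpy 2.4.6, pandas 2.3.3, scipy 1.17.1 and statsmodels 0.14.6 (lowess span 0.4).

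The members, lists and thresholds were chosen with earlier results of these data known. Named were all measured B members, all A members at least 2 times above the limit, and a set of inhibitors and proliferation genes in any case. The other members are named for completeness. List genes were named where past 2-fold or 2 times the limit. Anapc1, Tfdp1, Tob1, Rbl1, Rbl2 and Gadd45a met neither condition and were named outside this rule, with their values known.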

Additional observations from a re-analysis of the deposited data

How the results depend on the processing

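Members at least 2-fold lower in memory on the B chip numbered 1 as reported, 5 with the floor halved, and 0 with the floor doubled or a 3-fold threshold. Listed pathway genes numbered 1 as reported, 2 with the floor halved or a 1.5-fold threshold, and 0 with the floor doubled, a 3-fold threshold, the mean of all probe sets, or no sequence-family probe sets. The median log2 ratio of the 10 measured members, -0.52, includes 6 whose lower reading the filter set. It ranged from -0.91 (each array's own limit) to -0.21 (floor doubled). The Cdc42 ratio became positive, 0.31 after quantile and 0.30 after intensity-dependent normalization, and the cause was not tested.

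On the memory A array 18 members were above the limit as reported and 11 at least 2 times above it. These counts were 32 and 18 with the limit halved, and 11 and 2 with it doubled. Among the 13 genes read without a class letter they were 2 and 2. In that order, 52.5%, 18.0% and 15.4% of members were above the limit, against 46.7%, 15.0% and 17.5% of all genes. At 2 times the limit the shares were 29.5%, 3.28% and 15.4%, against 29.6%, 6.01% and 7.30%. On the B chip the setting without a class letter left no measured member. Each array's own limit and the setting that leaves out sequence-family probe sets were chosen after seeing the data. No array could be left out. No paired analysis was possible because each group had 1 array per chip and the labels number no replicates. Values under the floor give only bounds.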
